A study of Homo sapiens with 2 samples.

Results

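The 34 genes examined here carry out the integrated stress response and the unfolded protein response, and they were taken by gene name from a table of 61541 genes, of which 26379 had reads in at least 1 library. All 34 were found. The libraries came from Huh7, an established human hepatocellular carcinoma line. Huh7-NC cells had received a control siRNA (si-NC) and Huh7-si cells an siRNA against BRF2 (si-BRF2), which encodes TFIIB-related factor 2, a subunit of the transcription factor that brings RNA polymerase III to promoters such as that of U6. Each condition was 1 library of total RNA, the genotype labels being control and si-BRF2, and the comparison asked which mRNAs differed after BRF2 was depleted. The differences below therefore have no replicate check. They compare these libraries, not the conditions, and every interval or p covers counting error only.

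Cells under stress lower protein synthesis through kinases that phosphorylate the translation factor eIF2. Bulk translation falls, while the mRNA of the transcription factor ATF4 is translated more, and ATF4 turns on genes of amino acid supply together with DDIT3 (CHOP), ATF3 and the phosphatase subunit PPP1R15A that reverses the block. Unfolded protein in the endoplasmic reticulum (ER) reaches this pathway through EIF2AK3 (PERK), and 2 further sensors, IRE1 (ERN1) and ATF6, raise chaperones and degradation factors through XBP1 and ATF6 itself. Liver cells, which secrete much of the plasma protein, hold high levels of these ER factors. Phosphorylation of eIF2, splicing of XBP1, cleavage of ATF6 and translation of ATF4 are not measured by the reads per gene given here.

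The libraries held 22852648 reads in Huh7-NC against 22089016 in Huh7-si. BRF2, the targeted gene, had 1281 reads in Huh7-NC against 364 in Huh7-si, which was 70.6% lower per total reads (log2 fold change -1.77, 95% interval -1.94 to -1.60). All 10 hepatocyte-like markers were present at 76.6 TPM (a level scaled for gene length) or more in both libraries, although single markers moved, APOB being 2.05-fold higher in Huh7-si (20889 and 41399 reads) and APOA1 lower (15460 and 8417 reads, log2 fold change -0.83). The 14 markers of other cell types summed to 464 TPM in Huh7-NC and 479 TPM in Huh7-si, most of it from LYZ, at 438 and 433 TPM, and 3 of them in Huh7-NC and 4 in Huh7-si had no reads, DCN, KDR and CD3E, listed at 0, among them in both. Of these markers the collagen genes of fibroblasts were higher in Huh7-si, COL1A1 with 76 and 229 reads (3.12-fold) and COL1A2 with 737 and 1687 reads (2.37-fold). The part of these markers in the results was not tested. In bulk RNA, fewer cells of a type and less RNA per cell cannot be told apart.

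Of the 34 stress genes 28 lay within 1.5-fold of their control level and 6 were higher, where 18.8% of genes with at least 200 reads were higher by the same rule. ATF3, a stress-induced transcription factor, was the only member that was at least 2-fold higher in Huh7-si. EIF2AK3, DDIT3, PPP1R15A, ERN1 and SEL1L were between 1.5-fold and 2-fold higher. By total reads none of the 34 was 1.5-fold lower, although 5 were with the TMM scaling described next, the lowest being the amino acid and serine synthesis enzymes ASNS and PHGDH. The chaperones of the ER, which make up most of the members' RNA, stayed within 1.5-fold by total reads.

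Here a fold change is the ratio of CPM, the counts scaled to the library total, and a gene was called when the fold passed the threshold with p under 0.05 in a two-sided exact binomial test of its reads. By this rule 1 of 34 members was at least 2-fold higher and 0 were lower. Among all genes with reads, 10.4% were called higher and 1.02% lower, and among the 11682 genes with at least 200 reads over both libraries, a depth that every member reached, 5.94% were higher and 0.282% lower. With a fold of at least 1.5, 6 members were higher and 0 lower, against 17.6% and 2.87% of all genes with reads and 18.8% and 3.72% of genes with at least 200 reads. The members' counts were therefore not above the background. Their median log2 fold change was -0.02, beside 0.11 over genes with at least 200 reads and 0.21 over the 17921 genes with at least 10. The interval lay above 0 for 11 members, below 0 for 14 and across 0 for 9, where 46.2% of genes with at least 200 reads had an interval above 0 and 28.2% one below 0.

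The scale moved these counts. Scaling with trimmed means (TMM), which sets the bulk of genes to no change, shifted every log2 fold change by -0.22. The median of genes with at least 200 reads was then -0.11 and that of the members -0.24. On this scale 4 members (ATF3, PPP1R15A, ERN1 and SEL1L) were at least 1.5-fold higher and 5 (ASNS, PHGDH, PSAT1, TRIB3 and SDF2L1) lower, against 10.5% and 13.6% of genes with at least 200 reads. ATF3 was the only member past 2-fold on either scale. In the deposited TPM columns ATF3, PPP1R15A and ERN1 were past 2-fold, and the members' median was 0.14, beside 0.31 over genes with at least 200 reads. The share of all genes past 2-fold in the TPM columns was not counted, so these members have no background there.

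Gene length moved with the fold change. When genes with at least 10 reads were put into 20 bins by length, the bin of 703 to 962 bases had a median log2 fold change of -0.17 and the bin of the longest genes, 8485 bases and more, one of 0.67. Each member was therefore also set against the median of its own bin, called genes of like length below. On this measure ATF3, DDIT3 and PPP1R15A were still at least 1.5-fold higher, whereas EIF2AK3, ERN1 and SEL1L, all longer genes, were not. Relative to genes of like length, ASNS, PHGDH and EIF2AK2 were at least 1.5-fold lower. Over all 34 members the median became -0.21, with 10 above and 24 below their bin. The bins hold genes with at least 10 reads, and 0 is not the middle for better measured genes. Of genes with at least 200 reads, 40.4% stood above -0.0004 on this measure and 49.9% above -0.09. Of the same genes, 12.5% stood above 0.42, 4.55% above 0.78 and 93.8% above -0.59. Their share past 1.5-fold on this measure was not counted. The members named as higher or lower here are therefore not shown to exceed the background. The part of gene length in these results was not tested further.

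**Figure D1:**
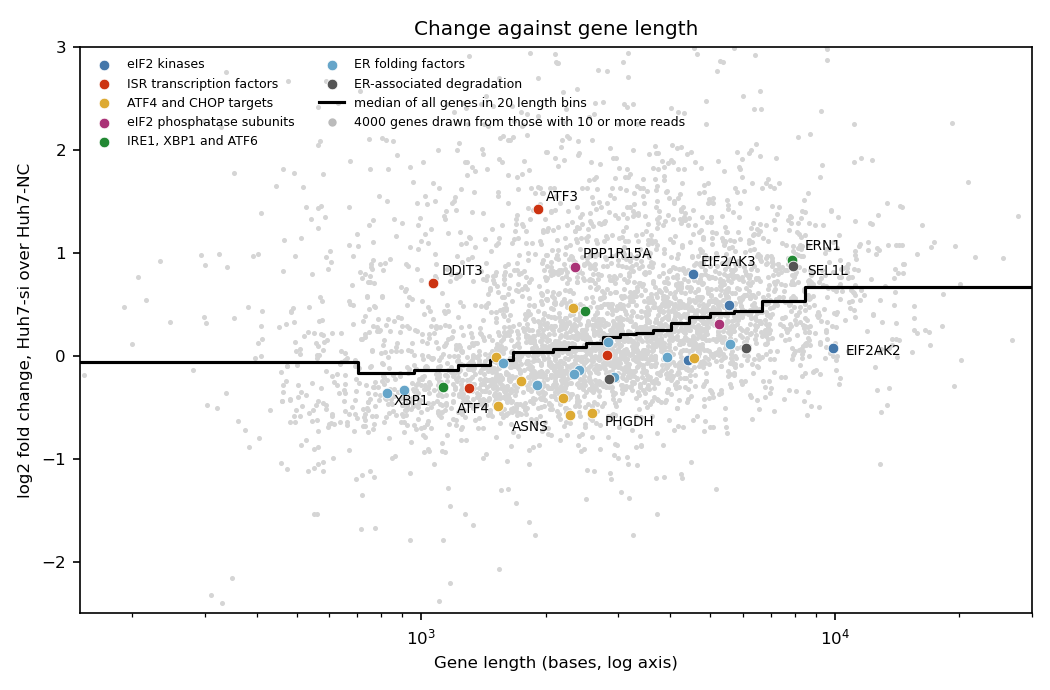
Log2 fold change (Huh7-si over Huh7-NC) against gene length in bases (log axis) for the members, coloured by role, and for a seeded draw of 4000 genes with at least 10 reads (grey, those outside the axes not drawn). The black steps are medians in 20 length bins, from -0.17 to 0.67, and ATF3, DDIT3 and PPP1R15A lie well above the step of their length, while SEL1L and ERN1 lie nearer to theirs.

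The eIF2 kinases sense different stresses, and of the 4 only the ER kinase passed 1.5-fold. EIF2AK3 (PERK) had 662 reads in Huh7-NC against 1108 in Huh7-si, or 12.2 and 21.5 TPM. It was 1.73-fold higher in Huh7-si (log2 fold change 0.79, interval 0.65 to 0.93, p 6.6e-30). Of genes with at least 200 reads, 11% had a higher log2 fold change, and relative to genes of like length EIF2AK3 stood 0.42 higher. EIF2AK4 (GCN2), which senses uncharged tRNA, was next with 707 and 966 reads (log2 fold change 0.50, interval 0.36 to 0.64), a difference that shrank to 0.08 against genes of like length. EIF2AK2 (PKR), which binds double-stranded RNA, had 550 and 559 reads, and its interval of -0.10 to 0.24 spanned 0. As one of the longest members it lay 0.60 below genes of like length. The heme-regulated kinase EIF2AK1 was the lowest of the group, with 4167.5 and 3913 reads (log2 fold change -0.04, interval -0.11 to 0.02). It was nevertheless the most abundant per length in both libraries, at 56.0 and 68.8 TPM. The ratio of EIF2AK3 to EIF2AK1 in reads does not depend on library scaling, and its log2 value was 0.83 higher in Huh7-si (interval 0.68 to 0.99). It does depend on the measure, going from 0.159 to 0.283 in reads and from 0.217 to 0.312 in TPM, a smaller rise. Exons of EIF2AK1 also overlap those of AIMP2 on the opposite strand by 532 bases, and AIMP2 had 1798.5 and 1486 reads.

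The transcription factors of the integrated stress response did not move together. ATF4, the central factor, was below its control level by less than 1.5-fold, whereas ATF3 and DDIT3, which lie downstream of it, were higher. By total reads CEBPG, a partner of ATF4 on DNA, stayed at its control level within the counting error.

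ATF4 had 11428 reads in Huh7-NC against 8893 in Huh7-si, or 495 and 441 TPM. Its log2 fold change was -0.31 (interval -0.35 to -0.27) and -0.54 with TMM scaling, in neither case past 2-fold. ATF4 remained among the most abundant mRNAs, at rank 294 of the table in Huh7-NC and 300 in Huh7-si by TPM. ATF4 is controlled largely at translation, so its mRNA level is not a reading of its protein.

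ATF3 had 312 reads in Huh7-NC against 811 in Huh7-si, or 10.3 and 36.0 TPM. It was 2.69-fold higher in Huh7-si (log2 fold change 1.43, interval 1.24 to 1.62, p 1.7e-55). Its rank by TPM moved from 7333 to 4054. Of genes with at least 200 reads, 1.62% had a higher log2 fold change, and 0.856% when each was set against genes of its own length. The log2 fold change was 1.20 with TMM scaling, 1.81 in the TPM columns and 1.39 above genes of like length, so its direction and its side of 2-fold held on each of these scales. The call rests on counting error: the exact test of edgeR gave p 3.8e-10 when a biological coefficient of variation of 0.1 was assumed and 0.096 when 0.4 was, and with 0.4 none of the 6 genes past 1.5-fold passed.

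DDIT3 (CHOP), a factor tied to prolonged stress, had 360.1 reads in Huh7-NC against 567 in Huh7-si, or 27.9 and 50.8 TPM. It was 1.63-fold higher (log2 fold change 0.70, interval 0.51 to 0.90, p 2.4e-13). Of genes with at least 200 reads, 13.8% had a higher log2 fold change, a share that fell to 3.88% once genes of like length were the reference, the median of its bin being -0.14. Exons of DDIT3 overlap those of 2 genes on the opposite strand, MARS1 by 355 bases and MBD6 by 58. MARS1 had 7923 and 8088 reads and MBD6 2348 and 5533, higher in Huh7-si as well. Whether the counting used strand is not given in the sources used here, so reads of DDIT3 and of these neighbours cannot be told apart in the overlap. CEBPG had 2089 and 2038 reads (log2 fold change 0.01, interval -0.08 to 0.10, and -0.21 with TMM scaling).

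Against ATF4 as the common reference, the log2 ratio of ATF3 to ATF4 was 1.74 higher in Huh7-si (interval 1.55 to 1.93) and that of DDIT3 to ATF4 1.02 higher (interval 0.82 to 1.21). These and 5 other ratios between members, 7 in all, were chosen after the values were seen.

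**Figure D2:**
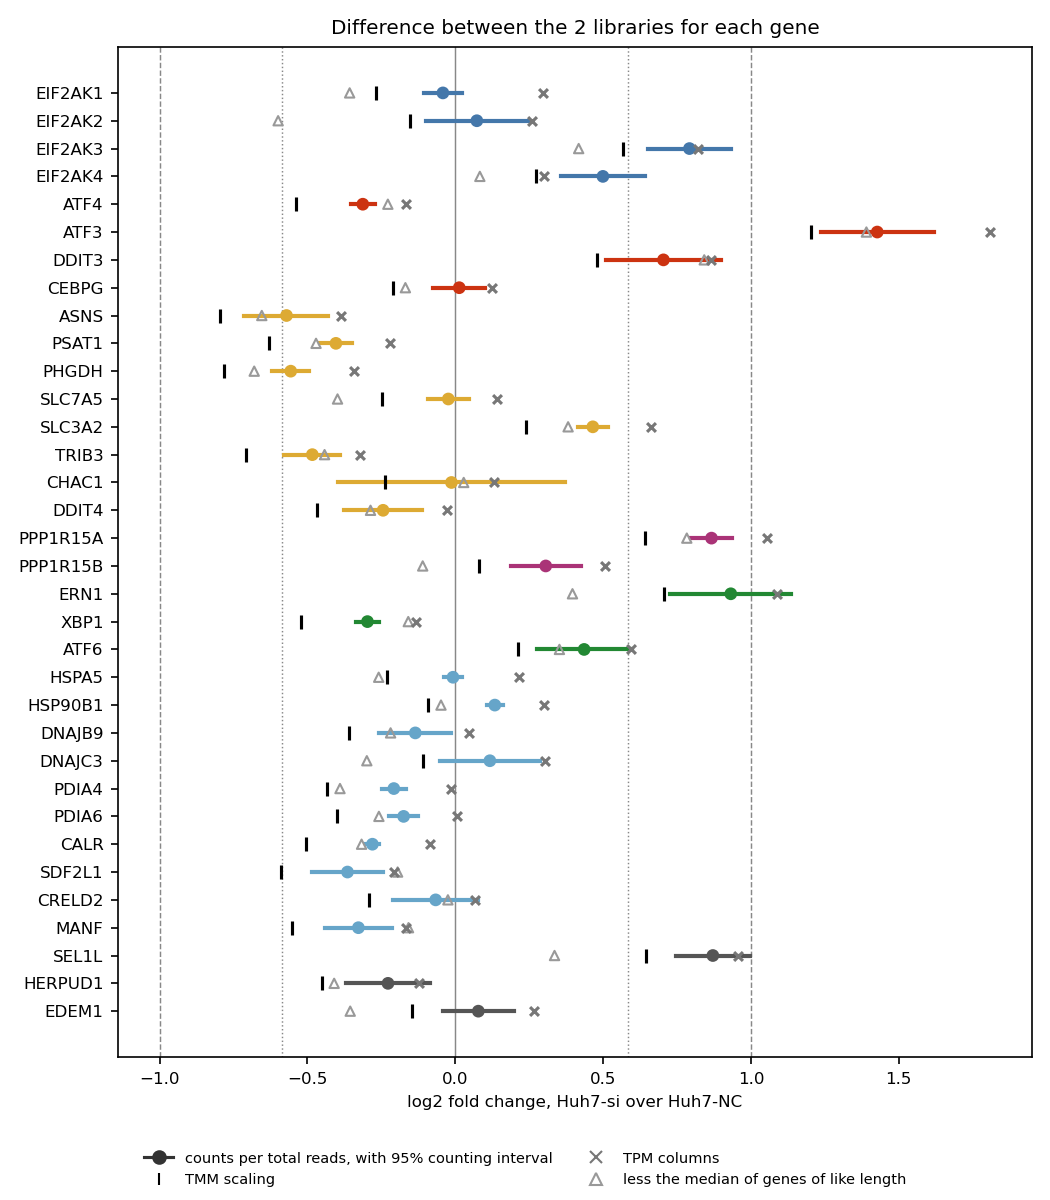
Log2 fold change (Huh7-si over Huh7-NC, horizontal axis) of each member from CPM, with bars for the 95% counting interval, beside the values with TMM scaling (ticks), from the TPM columns (crosses) and relative to genes of like length (triangles). Dashed lines mark 2-fold and dotted lines 1.5-fold, and ATF3, at 1.43 by CPM, is the only member beyond the dashed line in all 4 readings.

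The 8 members listed as targets of ATF4 and CHOP serve amino acid supply and feedback, and none reached 1.5-fold in either direction. The log2 fold change was below 0 in 7 of 8, in 5 with an interval wholly below 0, as for 28.2% of genes with at least 200 reads. Their median was -0.32, beside 0.11 over genes with at least 200 reads, and -0.42 against genes of like length. SLC3A2 was the exception. The list leaves out ATF3, DDIT3 and PPP1R15A, which ATF4 also turns on and which were higher. The 21 further targets counted for context had a median of 0.11, with 15 above 0, 4 at least 1.5-fold higher and 1 lower. By that rule 18.8% of genes with at least 200 reads were higher and 3.72% lower. Against genes of like length the median of the 21 was -0.11, with 7 above 0 and 14 below. On that measure 40.4% of genes with at least 200 reads stood above -0.0004 and 49.9% above -0.09.

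ASNS, the asparagine synthetase, had the lowest value of all members. It had 1031 reads in Huh7-NC against 671 in Huh7-si, or 31.6 and 24.1 TPM (log2 fold change -0.57, interval -0.71 to -0.43, p 8.4e-16). ASNS shares 1985 exon bases on the same strand with the gene model AC079781.5, which had 609 and 491 reads, so its reads could have been split between both. Its pseudogene ASNSP1 held 64.1 and 53 reads.

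The serine synthesis enzymes followed closely. PHGDH, which catalyses the entry step from glycolysis, had 5327 reads in Huh7-NC against 3501 in Huh7-si (log2 fold change -0.56, interval -0.62 to -0.49, p 1.1e-71). PSAT1, which acts at the next step, had 6460 and 4720 reads (log2 fold change -0.40). With TMM scaling PHGDH stood at -0.78, ASNS at -0.80 and PSAT1 at -0.63, all past 1.5-fold on that scale and on the lower side in the TPM columns too. TRIB3, a pseudokinase that restrains ATF4 and CHOP, had 2190 and 1514 reads (log2 fold change -0.48, and -0.71 with TMM scaling). DDIT4 (REDD1), an inhibitor of mTORC1, had 1071 and 874 reads (log2 fold change -0.24, interval -0.37 to -0.11).

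SLC7A5 and SLC3A2 encode the light and heavy chains of 1 amino acid exchanger, and their mRNAs differed in the size of the change. SLC3A2 had 5368 reads in Huh7-NC against 7163 in Huh7-si (log2 fold change 0.47, interval 0.41 to 0.52), the highest of the 8. SLC7A5 had 3543 and 3369 reads, with an interval of -0.09 to 0.04 that spanned 0. The log2 ratio of SLC3A2 to SLC7A5 was 0.49 higher in Huh7-si (interval 0.40 to 0.57). CHAC1, which degrades glutathione, had the fewest reads of any member, 119 and 114, and its interval of -0.40 to 0.37 leaves room for a difference that could not be detected at this depth.

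ATF4 binds composite sites joining C/EBP and ATF letters, and the search used the letters TGATGNAA (CARE) on both strands of the 250 bases upstream of each RefSeq start (GRCh38.p14). Such windows were found for 33 of the 34 members, 45 windows in all. Of the 33, 6 held at least 1 match, against 3.89% of 27305 genes and 2.26% of those with at least 200 reads. Because targets of ATF4 were chosen as members, that share is no test. The matches are printed because their holders include both the highest and the lowest member by fold change. Capitals mark the matched letters, on the gene's own strand, and where they read TTNCATCA the match is on the other strand. ATF3 lies on the plus strand (chr1:212565205-212565234, first matched base 191 bases before the start), ASNS on the minus strand (chr7:97872458-97872487, 68 before), CHAC1 on the plus strand (chr15:40953251-40953280, 209 before), CEBPG on the plus strand (chr19:33374060-33374089, 42 before), PPP1R15B on the minus strand (chr1:204412026-204412055, 227 before) and HERPUD1 on the plus strand (chr16:56931955-56931984, 176 before).
ATF3: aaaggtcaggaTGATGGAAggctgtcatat
ASNS: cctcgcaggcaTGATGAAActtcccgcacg
CHAC1: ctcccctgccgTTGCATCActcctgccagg
CEBPG: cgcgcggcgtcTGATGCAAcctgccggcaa
PPP1R15B: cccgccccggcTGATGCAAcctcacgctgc
HERPUD1: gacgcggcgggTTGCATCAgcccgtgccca
The log2 fold changes of the 6 holders ran from -0.57 for ASNS to 1.43 for ATF3, with CHAC1 at -0.01, CEBPG at 0.01, HERPUD1 at -0.23 and PPP1R15B at 0.31. Holding the letters thus went with no common direction. A match is a description of these windows, not a bound site, and a window without one says only that the letters are not in it. Several windows were held by 10 of the 33 members. Another window of ATF3 (chr1:212614768-212615017) held no match, and which start the cells used was not tested.

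Of the regulatory subunits that direct protein phosphatase 1 to eIF2, only PPP1R15A passed 1.5-fold. PPP1R15A (GADD34), the stress-induced subunit, had 2733 reads in Huh7-NC against 4817 in Huh7-si, or 66.7 and 138 TPM. It was 1.82-fold higher (log2 fold change 0.87, interval 0.80 to 0.93, p 1.5e-144). The difference on the log2 scale was 0.64 with TMM, 1.05 in the TPM columns and 0.78 above genes of like length, and 8.79% of genes with at least 200 reads were higher. PPP1R15B (CReP), the constitutive subunit, had 1043 and 1247 reads, or 10.8 and 15.4 TPM (log2 fold change 0.31, interval 0.19 to 0.43). With TMM scaling its value was 0.08 (p 0.18 in the exact binomial test), and it lay 0.11 below genes of like length. The log2 ratio of PPP1R15A to PPP1R15B was 0.56 higher in Huh7-si (interval 0.42 to 0.70). Per length, both together amounted to 77.5 TPM in Huh7-NC and 154 TPM in Huh7-si.

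Of the ER sensors other than PERK, ERN1 passed 1.5-fold, and its substrate XBP1 lay below its control level by less than that. ERN1 (IRE1), the kinase and endoribonuclease that splices XBP1, had 306 reads in Huh7-NC against 564 in Huh7-si. It was 1.91-fold higher (log2 fold change 0.93, interval 0.73 to 1.14, p 1.4e-20), and 7.31% of genes with at least 200 reads were higher. It was also the least abundant member per length, at 2.15 and 4.57 TPM, and against genes of like length the difference was 0.40. XBP1 had 12898 and 10147 reads (log2 fold change -0.30, interval -0.33 to -0.26) and held rank 344 by TPM in both libraries. The reads per gene add up the spliced and unspliced forms, so splicing was not measured. The log2 ratio of ERN1 to XBP1 was 1.23 higher in Huh7-si (interval 1.02 to 1.43). That ratio does not allow for gene length, and the bins of ERN1 and XBP1 had medians of 0.54 and -0.14. Against genes of like length XBP1 stood at -0.16. ATF6, the sensor that is cleaved to become a transcription factor, had 563 and 736 reads (log2 fold change 0.44, interval 0.28 to 0.60) and lay 0.35 above genes of like length.

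The 10 ER folding factors were the most abundant group per length and all stayed within 1.5-fold of their control level. Their log2 fold changes ran from -0.36 for SDF2L1 to 0.13 for HSP90B1, with a median of -0.15. Together they took 0.424% of the Huh7-NC reads and 0.395% of those of Huh7-si, and per length 2477 and 2545 TPM. The interval lay above 0 for HSP90B1 only, below 0 for 6 and across 0 for 3, beside the 46.2% above and 28.2% below given for genes of at least 200 reads. With TMM scaling, and likewise against genes of like length, all 10 lay below 0, and SDF2L1 alone passed 1.5-fold with TMM. Of genes with at least 200 reads, 42.4% stood above -0.01 with TMM and 40.4% above -0.0004 against genes of like length.

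HSPA5 (BiP), the ER HSP70 whose level is the usual gauge of the unfolded protein response, had 18743 reads in Huh7-NC against 18020 in Huh7-si. Its log2 fold change was -0.01 with an interval of -0.04 to 0.02, a narrow range because of its many reads. On other scales it stood at -0.23 with TMM and 0.21 in the TPM columns. HSP90B1 (GRP94), the ER HSP90, had 21709 and 23022 reads (log2 fold change 0.13, interval 0.11 to 0.16), a direction that turned with TMM scaling, to -0.09. CALR (calreticulin), a lectin chaperone, had 33358 and 26550 reads (log2 fold change -0.28, interval -0.30 to -0.26) and was the most abundant member per length, at 1031 and 973 TPM.

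The protein disulfide isomerases lay slightly lower, PDIA4 with 10804 and 9042 reads (log2 fold change -0.21) and PDIA6 with 7047 and 6034 (-0.17). SDF2L1, a stress-inducible ER protein that works with J proteins, was the lowest of the group with 1340 and 1006 reads (log2 fold change -0.36, interval -0.48 to -0.25, and -0.59 with TMM scaling). MANF, a secreted ER stress protein, had 1449 and 1116 reads (log2 fold change -0.33). The interval spanned 0 for CRELD2 (819 and 756 reads), another secreted ER stress factor, and for the J protein DNAJC3 (557 and 584 reads). DNAJB9, a J protein that holds IRE1 inactive, had 1176 and 1035 reads (log2 fold change -0.14, interval -0.26 to -0.01).

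Many of these genes carry the ER stress element (ERSE), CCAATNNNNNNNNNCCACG, which ATF6 and XBP1 bind together with NF-Y. In the 250-base upstream windows, 6 of 33 members held it on either strand, against 0.0916% of 27305 genes and 0.153% of those with at least 200 reads. Targets of ATF6 and XBP1 were chosen as members, so this share tests nothing. The windows are shown to set these elements beside the values of the genes that hold them, none of which passed 1.5-fold. Capitals mark the matched letters, on the gene's own strand, with CALR, CRELD2 and the second HSP90B1 line on the opposite strand. HSPA5 lies on the minus strand (chr9:125241386-125241414, first matched base 66 before the start), PDIA6 on the minus strand (chr2:10812848-10812876, 86 before), XBP1 on the minus strand (chr22:28800598-28800626, 52 before), CALR on the plus strand (chr19:12938379-12938407, 225 before), CRELD2 on the plus strand (chr22:49918549-49918577, 80 before) and HSP90B1 on the plus strand (chr12:103930211-103930239, 194 before, and chr12:103930316-103930344, 89 before).
HSPA5: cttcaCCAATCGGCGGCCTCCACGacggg
PDIA6: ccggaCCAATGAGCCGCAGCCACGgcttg
XBP1: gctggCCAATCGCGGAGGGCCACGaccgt
HSP90B1: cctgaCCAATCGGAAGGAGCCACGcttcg
HSP90B1: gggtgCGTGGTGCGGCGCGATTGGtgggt
CALR: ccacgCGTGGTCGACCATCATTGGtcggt
CRELD2: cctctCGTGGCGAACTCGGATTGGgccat
The log2 fold changes of these 6 genes ran from -0.30 for XBP1 to 0.13 for HSP90B1. The related element ERSE-II, ATTGGNCCACG, was found in 2 members, against 0.0659% of all genes, again shown in capitals within the gene's own strand, HERPUD1 on the plus strand (chr16:56932016-56932044, 117 before the start) and SDF2L1 on the plus strand (chr22:21642105-21642133, 188 before, matched on the opposite strand).
HERPUD1: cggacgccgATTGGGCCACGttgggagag
SDF2L1: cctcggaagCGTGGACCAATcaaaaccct
HERPUD1 thus held ERSE-II and CARE in the same window, without overlap. The UPR element searched as TGACGTG was in 0 of 33 members and in 2.05% of all genes. In all, 13 members held at least 1 of the elements, and by CPM ATF3, at 1.43, was the only one of the 13 whose fold change passed 1.5-fold. With TMM scaling ATF3 (1.20) still passed, and ASNS (-0.80) and SDF2L1 (-0.59) passed on the lower side. ASNS did so against genes of like length too (-0.65).

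**Figure D3:**
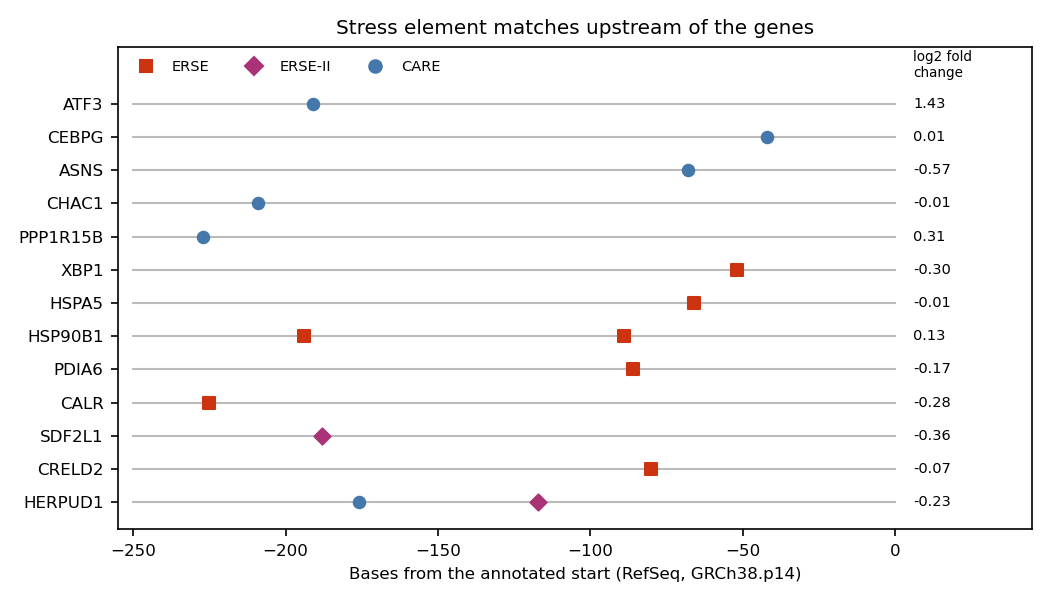
Position of each element match in the 250 bases before a RefSeq start (horizontal axis, bases) for the 13 members that hold one. The log2 fold change from CPM is at the right. Squares are ERSE, diamonds ERSE-II and circles CARE. The genes with ERSE lie between -0.30 and 0.13, and ATF3, with a CARE match, is the only gene listed above 0.31.

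The ER-associated degradation genes, which draw misfolded proteins out of the ER, differed among themselves. SEL1L, the scaffold of the HRD1 ubiquitin ligase, had 815 reads in Huh7-NC against 1441 in Huh7-si, or 6.39 and 12.4 TPM. It was 1.83-fold higher (log2 fold change 0.87, interval 0.75 to 0.997, p 6.5e-45), with 8.71% of genes of at least 200 reads higher, and 0.34 above genes of like length. HERPUD1, a membrane partner of the same ligase, had 917 and 757 reads (log2 fold change -0.23, interval -0.37 to -0.09, p 0.0014). The log2 ratio of SEL1L to HERPUD1 was 1.10 higher in Huh7-si (interval 0.91 to 1.28). Gene length is not allowed for in that ratio either, the medians of their bins being 0.54 and 0.18. Against genes of like length HERPUD1 stood at -0.41. EDEM1, which prepares glycoproteins for degradation, had 1132 and 1155 reads, and its interval of -0.04 to 0.20 spanned 0.

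A further 75 genes of the same pathways were counted for context, of which 74 had at least 10 reads. By the 2-fold rule 3 were higher and 0 lower, and by the 1.5-fold rule 9 were higher and 6 lower, counts to be read against the 5.94% and 0.282%, and 18.8% and 3.72%, of genes with at least 200 reads. Their median was 0.06. With TMM scaling the 2-fold rule gave 1 higher and 2 lower.

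The amino acid transporter SLC38A2 (SNAT2) had the best measured rise of the list, with 4823 reads in Huh7-NC against 10264 in Huh7-si (log2 fold change 1.14, interval 1.09 to 1.19, and 0.91 with TMM scaling). CREBRF, a regulator linked to the unfolded protein response, had 100 and 249 reads (log2 fold change 1.37, interval 1.02 to 1.71, and 1.14 with TMM scaling). Against genes of like length neither passed 2-fold, SLC38A2 standing at 0.76 and CREBRF at 0.83. CDNF, a relative of MANF, had only 5 and 14 reads, and its interval of -0.02 to 3.36 reached 0 although its exact binomial p was 0.039. It stood 1.62 above genes of like length. Between 1.5-fold and 2-fold higher were UGGT1 (0.89), which returns glycoproteins to folding, and the cationic amino acid transporter SLC7A1 (0.85). So were VLDLR (0.67), the cystine transporter SLC7A11 (0.65), EDEM3 (0.64) and CRELD1 (0.64). Against genes of like length none of these passed 1.5-fold. There UGGT1 stood at 0.22, SLC7A1 at 0.32, VLDLR at -0.0004, SLC7A11 at -0.03, EDEM3 at 0.21 and CRELD1 at 0.43.

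At least 1.5-fold lower were 6 genes of the list. EIF2B3, a subunit of the exchange factor that eIF2 phosphorylation inhibits, had 802 reads in Huh7-NC against 442 in Huh7-si (log2 fold change -0.81, interval -0.98 to -0.64), and with TMM scaling it passed 2-fold at -1.04. EIF4EBP1, a translational repressor and ATF4 target, had 3280 and 1837 reads (log2 fold change -0.79, and -1.01 with TMM scaling). The eIF2 subunit EIF2S2 (-0.67), the translocon subunits SEC61B (-0.73) and SEC61G (-0.69) and GRPEL1 (-0.65), a mitochondrial co-chaperone, made up the rest. Other members of the same groups did not pass, among them EIF2S3 (0.11), EIF2B5 (0.04), SEC62 (0.16) and SEC63 (0.30). Most of these groups lay below 0, 6 of the 8 eIF2 and eIF2B genes and 8 of the 12 translocon and traffic genes. Against genes of like length 8 and 11 did. Of genes with at least 200 reads, 60.9% stood above -0.008 by CPM, but only 40.4% above -0.0004 against genes of like length. By group, the medians were -0.16 for subunits of eIF2 and eIF2B, 0.11 for further ATF4 and CHOP targets and 0.43 for sensor processing factors. They were 0.19 for further folding factors, -0.26 for translocon and traffic and -0.04 for further degradation genes. Against genes of like length the medians were, in the same order, -0.40, -0.11, 0.07, -0.05, -0.17 and -0.07. There 49.9% of genes with at least 200 reads stood above -0.09. DERL3 had 0 and 2 reads, below the 3 reads that a count of 0 allows, and no fold is given.

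**Figure D4:**
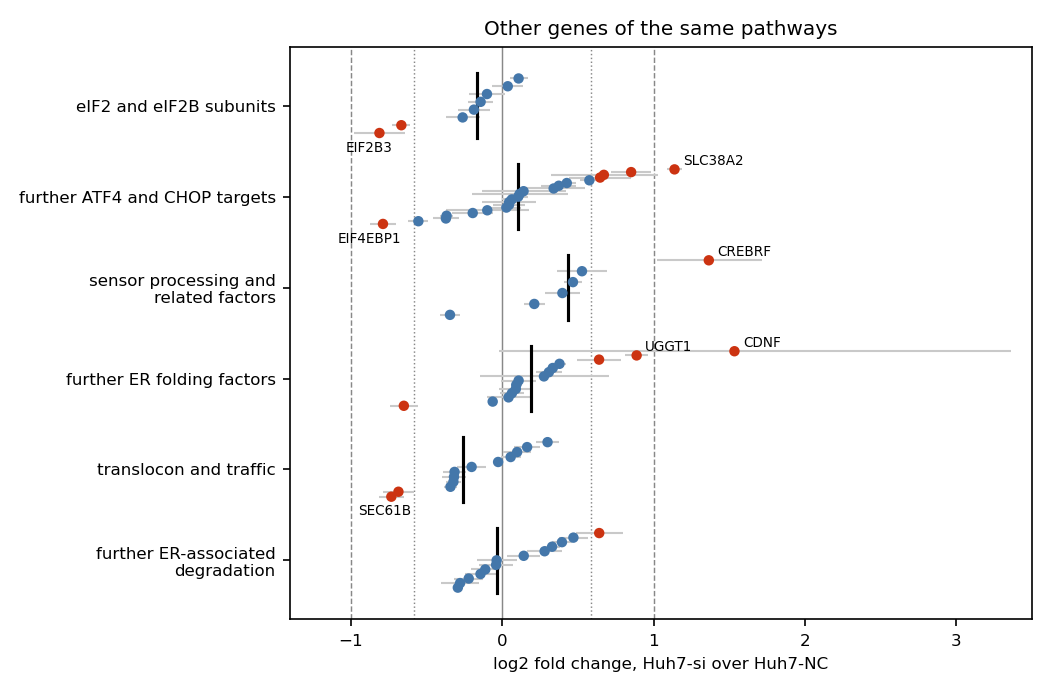
Log2 fold change (Huh7-si over Huh7-NC, horizontal axis) of the 74 other pathway genes with at least 10 reads, in 6 groups, with grey bars for the 95% counting interval and black bars for group medians. Red points passed 1.5-fold with p under 0.05, dashed lines mark 2-fold and dotted lines 1.5-fold. Medians run from -0.26 for translocon and traffic to 0.43 for sensor processing. All values are from CPM and are not set against genes of like length.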

How the data were processed

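Total RNA was extracted with an RNA Fast200 kit and made into libraries by standard Illumina protocols. The submitters' processing notes name Bowtie2 2.0.6, TopHat2 2.0.12 and the build GRCh37. The counting tool, annotation and strandedness are not given in the sources used here. The authors deposited 1 table with, per gene, an estimated count of reads and a TPM value for each library, and a gene length. The deposited estimated counts were not scaled, and 16 of the 34 members have fractional values. The authors' fold and p-value columns were not used, and 0 sample columns were left aside.

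Fold changes are ratios of CPM, computed here from the estimated counts, rounded for tests, and 0.5 reads were added for medians over all genes and length bins. The two-sided exact binomial test, given total reads, and 95% Clopper-Pearson intervals compare reads. A count of 0 allows 3 reads. Intervals of ratios between genes are normal approximations on counts. Members and gene lists were chosen with earlier results of these data known. The rule named members past a threshold and the highest and lowest of each role; some further members are given with their values for completeness. Alternatives were TMM (edgeR 4.0.16, R 4.3.3), DESeq2 1.42.0 median-of-ratios and upper-quartile scaling, TPM, a pseudocount of 1 CPM, Benjamini-Hochberg adjustment, the exact test of edgeR with an assumed variation between replicates, and genes of like length. The steps were tested on simulated reads. Overlaps came from GENCODE 29 (GRCh38) and upstream windows from RefSeq (GRCh38.p14). Python 3.11.15, pandas 2.3.3, SciPy 1.17.1 and matplotlib 3.10.9 were used.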

Additional observations from a re-analysis of the deposited data

How the results depend on the processing

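With 1 library per condition no replicate could be left out, and no paired analysis was possible because the groups share no replicate pair. Counting error is the only error covered. The fold threshold of 1.5 for the members' and pathway counts under other settings, and the background of genes with at least 200 reads, were chosen after seeing the data. BRF2 kept its direction and call in all settings. Of the 34 members, 29 kept direction and call with each of TMM, median-of-ratios and upper-quartile scaling, 25 in the TPM columns and 27 against genes of like length. Members at least 2-fold higher numbered 1, which became 3 in the TPM columns, 6 with a 1.5-fold threshold and 0 with an assumed variation of 0.4. The share of all genes past 2-fold in the TPM columns was not counted. Members at least 1.5-fold higher numbered 6, which became 0 with a variation of 0.4 and 3 against genes of like length. The share of all genes past 1.5-fold against genes of like length was not counted. Members at least 1.5-fold lower numbered 0, and 5, 4 and 4 with TMM, median-of-ratios and upper-quartile scaling and 3 against genes of like length. The members' median of -0.02 became -0.24, -0.23 and -0.20 with those scalings, 0.14 in the TPM columns and -0.21 against genes of like length. Of the other pathway genes, 3 were at least 2-fold higher, which became 1 with each of the 3 scalings and against genes of like length, 6 in the TPM columns, 9 at 1.5-fold and 0 with a variation of 0.4. That 1 gene was CREBRF with the scalings, but CDNF, with 5 and 14 reads, against genes of like length. The 9 at 1.5-fold became 4 with TMM. The 0 at least 2-fold lower became 2 with TMM, 1 with median-of-ratios and 6 at 1.5-fold.

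Directions turned for members near 0. In the TPM columns EIF2AK1 was at 0.30, SLC7A5 0.14, CHAC1 0.13, HSPA5 0.21, DNAJB9 0.0457, PDIA6 0.0056 and CRELD2 0.0682. With TMM, median-of-ratios and upper-quartile scaling, EIF2AK2 was at -0.15, -0.13 and -0.11, CEBPG at -0.21, -0.19 and -0.17, HSP90B1 at -0.0909, -0.0732 and -0.0527, DNAJC3 at -0.11, -0.0900 and -0.0694, and EDEM1 at -0.15, -0.13 and -0.11. Against genes of like length EIF2AK2 was at -0.60, CEBPG -0.17, CHAC1 0.0285, PPP1R15B -0.11, HSP90B1 -0.0483, DNAJC3 -0.30 and EDEM1 -0.36. The scalings shift every gene by a constant, and for the TPM columns the cause was not tested.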

Other observations

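The deposited TPM columns and the estimated counts gave different log2 fold changes for the same gene. Over genes with at least 200 reads the TPM value exceeded the CPM value by a median of 0.18 on the log2 scale. Among the members the 34 genes summed to 162790 reads in Huh7-NC against 148810 in Huh7-si, a share of reads that went from 0.712% to 0.674%, while their summed TPM went from 4387 to 4545. The members' share was thus lower in Huh7-si by reads and higher by TPM.

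Exons of 9 members overlap another gene in the reference annotation. PDIA6 shares the longest opposite-strand stretch, 1033 bases with ATP6V1C2, which had 10.2 reads in Huh7-NC against 17.6 in Huh7-si. Of the 16 annotated pseudogenes named after 6 of the members, 7 had reads. SLC7A5P2 had 6.21 reads in Huh7-NC against 32.6 in Huh7-si, beside 3543 and 3369 for SLC7A5, and no other of them exceeded the 64.1 reads of ASNSP1.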
